A study of Mus musculus with 15 samples.

Results

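Transcripts of 40 genes of the Wnt system were followed through cultured mouse bone marrow endothelial cells (BMECs), lung endothelial cultures and marrow mesenchymal stromal cells (MSC). The genes were taken by symbol alone from a count table of 44674 genes, as 18 Wnt ligands, 10 Frizzled receptors (Fzd), 4 secreted Frizzled-related proteins (Sfrp1, Sfrp2, Sfrp4 and Sfrp5), 4 Dickkopfs (Dkk) and 4 R-spondins (Rspo). Wnt2 was left out of the selection, and Frzb, which encodes a further Frizzled-related protein, was followed among the other pathway genes. Values are CPM, counts scaled to each library's total, written as replicate 1 and then replicate 2.

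Wnt proteins are lipid-modified secreted ligands that bind the cysteine-rich domain of Frizzled receptors. With the co-receptors Lrp5 and Lrp6 they stabilise beta-catenin, which activates targets such as Axin2 with TCF and LEF factors, and with Ror1 and Ror2 they act on the cytoskeleton without beta-catenin. Secreted Frizzled-related proteins bind Wnt ligands, Dickkopfs such as Dkk1 and Dkk2 bind Lrp5 and Lrp6, and R-spondins keep Frizzled receptors at the cell surface through Lgr4, Lgr5 and Lgr6. In endothelium Fzd4 is best known as the receptor for norrin in the retinal vasculature, where Tspan12 is part of its complex, and in bone Wnt signalling drives osteoblast formation.

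The study sorted endothelial cells from primary cultures of whole marrow by endomucin (Emcn), a surface sialomucin of venous and sinusoidal endothelium, and sequenced total RNA in 15 libraries of 8 conditions. P0 Emcn+ and P0 Emcn- were DAPI-CD45-tdTomato+ cells sorted after 14 days from whole marrow of Tie2-CreERT2;Rosa26-tdTomato mice in EGM-2 medium, with 2 libraries each. The lung libraries (n = 2) came from lung cultures, sorted as Emcn- by the study's methods, the P1, P2 and P3 libraries (n = 2 each) and the P4 library (n = 1) from Emcn- BMECs of later passages, and the MSC libraries (n = 2) from DAPI-CD45-tdTomato+ cells of Osx-Cre;Rosa26-tdTomato mice in MesenCult medium. The animals were 4 to 6 months old, and the sample labels give the genotype as WT. Tie2-CreERT2 is driven by the Tek promoter and induced with tamoxifen, and Osx-Cre is an osteolineage driver, so tdTomato marks any cell in which the driver was active, and the MSC libraries differ from the others in mouse line, medium and driver at once. Per the labels, batch d held replicate 1 and batch a replicate 2 of the P0 and lung conditions, batch b held the P4 library and the first replicates of P1 to P3, and batch c held replicate 2 of P1 to P3 and both MSC libraries.

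Libraries held 9914620 to 39718807 counts, the smallest being P0 Emcn- replicate 2, where 3 counts equal 0.303 CPM. The endothelial label held for P0 Emcn+, where the summed level of 10 endothelial markers was 12253 and 10234 CPM, and not by RNA for the other cultures, where the sum was 335 and 78.3 in P0 Emcn-, 224 and 674 in lung and 67.9 to 103.2 in P1 to P4. The summed level of 7 fibroblast markers went the other way, with 219 and 303 CPM in P0 Emcn+, 20317 and 15809.5 in P0 Emcn-, 12520.4 and 13536 in lung, 4088 to 6461 in P1 to P4 and 19347 and 10580.4 in MSC. Cdh5 (VE-cadherin) was at 6222 and 5118 CPM in P0 Emcn+ and at 119 and 6.35 in P0 Emcn-. Every comparison of Emcn+ with Emcn- cells below thus set side by side libraries that also differed widely in endothelial and fibroblast markers. The part of that difference in the results was not tested. Macrophage markers (8 genes) summed to 593 and 599 CPM in P0 Emcn+, 196 and 240.1 in P0 Emcn- and 23.3 and 21.0 in lung, 5 osteolineage markers to 10.9 and 153 in P0 Emcn- and 136 and 74.7 in MSC, 6 mural markers to 13.8 and 103 in P0 Emcn+ and 1228 and 1554 in MSC, and 5 epithelial markers to at most 0.449 in any library. In such bulk libraries, fewer cells of a type and less RNA per cell cannot be told apart.

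Of the 40 genes, 17 reached a mean of 10 CPM in at least 1 condition, 8 had their highest condition mean between 1 and 10 CPM, and 15 stayed under 1 CPM in all conditions. After the filter on low counts 28 of the 40 were among the 19401 genes tested. The quasi-likelihood F test over the 8 conditions (edgeR, Benjamini-Hochberg adjusted p under 0.05) was passed by 26 of these 28, and by 63.5% of all genes tested, and the exceptions were Fzd4 and Wnt6. A gene was called between 2 conditions at an adjusted p below 0.05 with a log2 fold change beyond 1.5 in either direction, with p-values adjusted over all 19401 genes. Errors of log2 fold changes are standard errors (SE), with 2 libraries per condition unless stated. Each was derived from the fold change and its F statistic, as the fold change over the square root of F. The spread behind them and behind the p-values was pooled over the replicated conditions among all 15 libraries. They are therefore not the spread of the compared libraries alone.

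P0 Emcn+ and P0 Emcn- cells held different genes of the system at the higher level. In P0 Emcn+ cells Fzd6 and the ligands Wnt9a, Wnt5b and Wnt7b were higher, while Fzd1, Fzd2, Fzd7, Wnt5a, Wnt11, Wnt16, Sfrp1, Sfrp2, Sfrp4, Dkk2, Dkk3, Rspo2 and Rspo3 were lower. Of the 28 genes tested 4 were called higher, against 7.79% of all genes tested, and 13 lower, against 11.4% of all (19.2% in either direction). The median log2 fold change of the 28 was -2.55, and that of all genes tested -0.06. By family, 3 of 10 ligands tested were called higher and 3 lower, 1 of 10 receptors higher and 3 lower, and among the secreted modulators 7 of 8 were called lower and none higher.

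**Figure D1:**
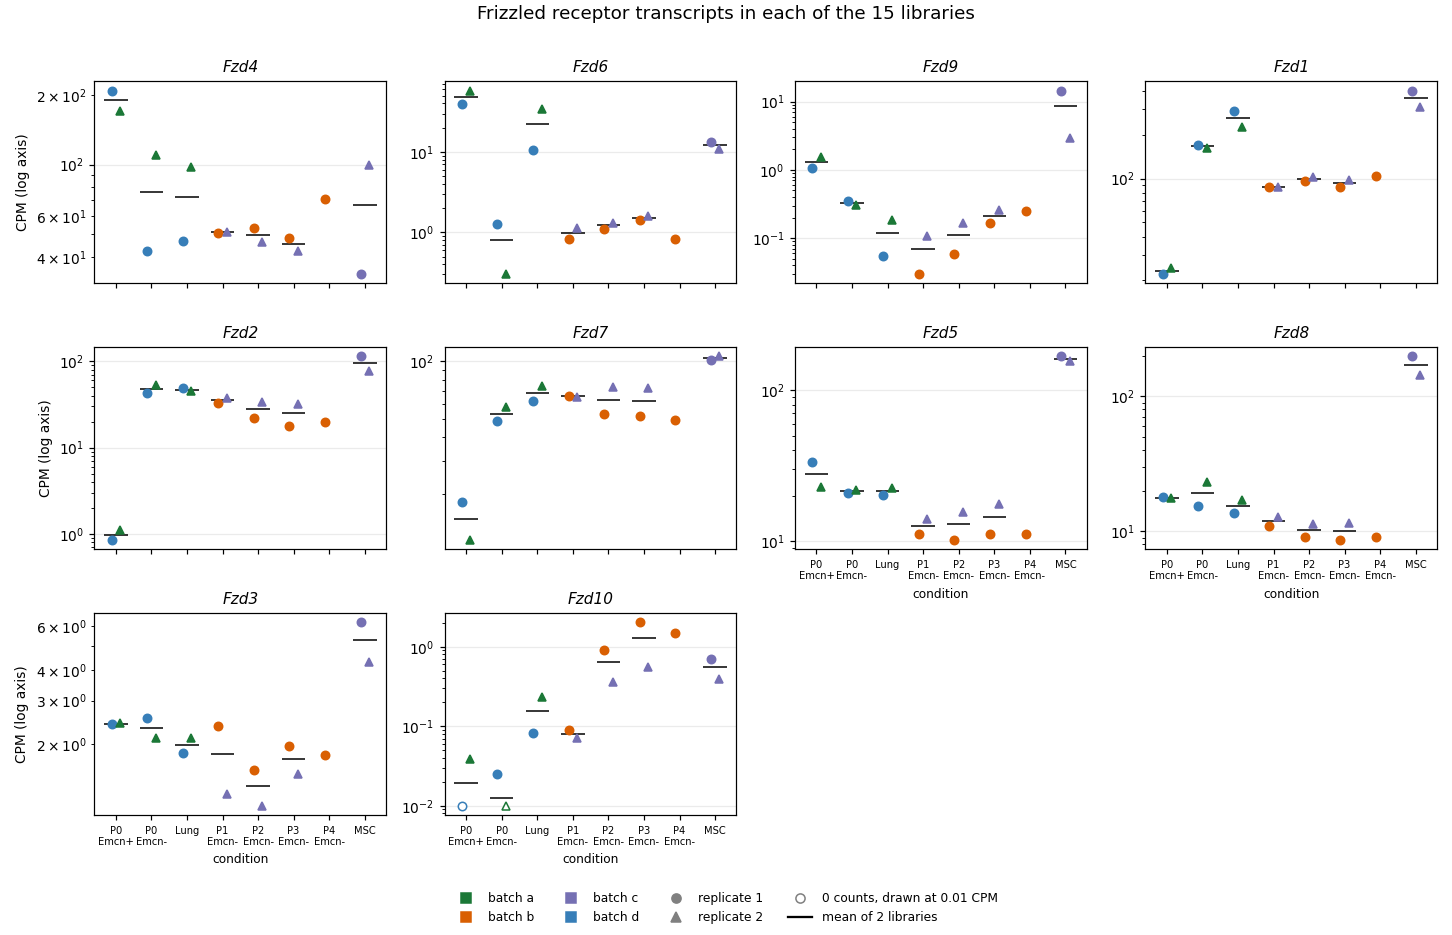
CPM of the 10 Frizzled receptors on log axes, with a point for each of the 15 libraries, coloured by batch and shaped by replicate, a bar at the mean of each pair and open symbols for 0 counts. Fzd4 and Fzd6 stood highest in P0 Emcn+, whereas Fzd1, Fzd2 and Fzd7 stood lowest there, and Fzd5 and Fzd8 stood highest in MSC.

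Among the receptors, Fzd4 (ENSMUSG00000049791, chr7:89404355-89413134, + strand, GRCm38) had 209 and 171 CPM in P0 Emcn+, 42.4 and 109.8 in P0 Emcn-, 46.7 and 97.9 in lung, 50.9 and 51.0 in P1, 53.1 and 46.1 in P2, 48.4 and 42.5 in P3, 70.7 in P4 and 33.7 and 99.8 in MSC. Both P0 Emcn+ libraries lay above all 13 others, while the replicates of P0 Emcn-, lung and MSC were far apart. The difference between P0 Emcn+ and P0 Emcn- was not called (log2 fold change 1.36 ± 0.53, adjusted p = 0.0721). With a replicate block of 2 terms, for batch a against d and batch b against c, it was called (log2 fold change 1.55 at an adjusted p of 0.0450), as it was against lung (1.53 at an adjusted p of 0.0433, against 1.37, adjusted p = 0.0657 without the block). Without P0 Emcn- replicate 2 it was also called (2.19 at an adjusted p of 0.0249), and within batches the log2 ratio of P0 Emcn+ over P0 Emcn- was 2.29 in batch d and 0.64 in batch a.

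Fzd6 (ENSMUSG00000022297, chr15:39006034-39038188, + strand), a receptor known for planar polarity in skin and hair, had 39.4 and 57.7 CPM in P0 Emcn+, 1.28 and 0.303 in P0 Emcn-, 10.6 and 34.1 in lung, 0.833 and 1.15 in P1, 1.11 and 1.33 in P2, 1.41 and 1.59 in P3, 0.825 in P4 and 13.4 and 10.7 in MSC. P0 Emcn+ was above every other library, lung and MSC were intermediate, and the 9 marrow Emcn- libraries were all at or under 1.59 CPM. Fzd6 was 53.0-fold higher in P0 Emcn+ than in the P0 Emcn- cells (log2 fold change 5.73 ± 0.64, adjusted p = 1.00e-04). Between replicates, Fzd6 and the endothelial marker sum ran in the same order in lung (224 and 674 CPM for the sum) and P0 Emcn- (335 and 78.3), and in opposite order in P0 Emcn+ (12253 and 10234), P1, P2, P3 and MSC (43.4 and 359.9), and the part of these markers in the result was not tested.

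Fzd2 (ENSMUSG00000050288, chr11:102604396-102608058, + strand), a receptor for Wnt5a signalling with Ror co-receptors, had 0.856 and 1.12 CPM in P0 Emcn+, 42.4 and 52.8 in P0 Emcn-, 48.7 and 45.2 in lung, 33.1 and 37.5 in P1, 22.2 and 33.7 in P2, 17.7 and 32.0 in P3, 19.9 in P4 and 113 and 76.6 in MSC. Each of the other 13 libraries was at or above 17.7 CPM, far above both P0 Emcn+ libraries. Fzd2 was 47.0-fold lower in P0 Emcn+ than in the P0 Emcn- cells (log2 fold change -5.56 ± 0.38, adjusted p = 4.70e-06).

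Fzd1 (ENSMUSG00000044674, chr5:4753839-4758035, - strand) had 22.1 and 24.3 CPM in P0 Emcn+, 171 and 162 in P0 Emcn-, 292 and 227 in lung, 88.2 and 87.3 in P1, 96.4 and 103 in P2, 88.1 and 97.8 in P3, 104 in P4 and 403 and 310.4 in MSC. P0 Emcn+ was lowest, the passaged libraries lay below P0 Emcn-, and MSC and lung were highest. Fzd1 was 7.02-fold lower in P0 Emcn+ (log2 fold change -2.81 ± 0.18, adjusted p = 3.75e-06). Fzd7 (chr1:59482424-59486955, + strand), a close relative of Fzd1 and Fzd2, had 18.3 and 11.5 CPM in P0 Emcn+, 48.9 and 57.6 in P0 Emcn-, 61.9 and 74.2 in lung, 65.6 and 65.2 in P1, 52.9 and 73.0 in P2, 51.8 and 72.6 in P3, 49.0 in P4 and 101 and 106 in MSC. P0 Emcn+ again lay below all 13 other libraries (log2 fold change -1.80 ± 0.24, adjusted p = 3.06e-04), a call that was lost without P0 Emcn+ replicate 2 (-1.49 at an adjusted p of 0.00210).

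Fzd5 and Fzd8, a pair of closely related receptors of beta-catenin signalling, were not called between Emcn+ and Emcn- cells. Fzd5 had 33.2 and 22.7 CPM in P0 Emcn+, 20.7 and 22.0 in P0 Emcn-, 20.3 and 22.5 in lung, 11.1 and 14.1 in P1, 10.2 and 15.7 in P2, 11.1 and 17.7 in P3, 11.2 in P4 and 166 and 156 in MSC. Fzd8 had 17.9 and 17.6 CPM in P0 Emcn+, 15.5 and 23.1 in P0 Emcn-, 13.6 and 17.2 in lung, 11.0 and 12.7 in P1, 9.07 and 11.4 in P2, 8.63 and 11.5 in P3, 9.02 in P4 and 197 and 144 in MSC. In both genes MSC stood far above the rest, the P0 and lung libraries came next, and the passaged libraries were lowest. P0 Emcn+ and P0 Emcn- overlapped in Fzd8, and were apart by a small margin in Fzd5. Their log2 fold changes of P0 Emcn+ against P0 Emcn- were 0.43 (adjusted p = 0.247) and -0.07 (adjusted p = 0.870). The other receptors were low. Fzd3 ranged from 1.13 CPM in P2 replicate 2 to 6.23 in MSC replicate 1, and Fzd10 from 0 to 2.03 in P3 replicate 1. Fzd9 had 1.08 and 1.55 CPM in P0 Emcn+, 0.352 and 0.303 in P0 Emcn-, 0.0552 and 0.184 in lung, 0.0297 and 0.108 in P1, 0.0584 and 0.166 in P2, 0.169 and 0.259 in P3, 0.247 in P4 and 14.5 and 2.92 in MSC. It was called between P0 Emcn+ and lung (log2 fold change 3.50 ± 0.91, adjusted p = 0.0124), a call lost without lung replicate 1 (2.80 at an adjusted p of 0.105), but not between P0 Emcn+ and P0 Emcn- (log2 fold change 1.98 ± 0.82, adjusted p = 0.0903).

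Levels of different genes were compared per kb of exon, on which scale Fzd4 was the most abundant Frizzled transcript of P0 Emcn+ cells and Fzd1 that of every other condition. Fzd4 took 51.1% ± 4.50 (SD, n = 2) of the summed Frizzled CPM per kb in P0 Emcn+, and 13.3% ± 7.00 in P0 Emcn-. Fzd6 took 18.4% ± 5.81 in P0 Emcn+ and 0.211% ± 0.200 in P0 Emcn-. Fzd1 took 10.0% ± 1.20 in P0 Emcn+, 48.5% ± 7.50 in P0 Emcn- and 55.7% ± 9.83 in lung. In the passaged cells it took 36.8% ± 1.01 in P1, 41.9% ± 2.90 in P2, 41.1% ± 2.87 in P3 and 44.5% in P4 (n = 1). The second receptor of the passaged cells was Fzd7, with 25.4% ± 0.643 in P1, 24.3% ± 2.78 in P2 and 25.2% ± 2.39 in P3. The shares are descriptions without a test.

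**Figure D2:**
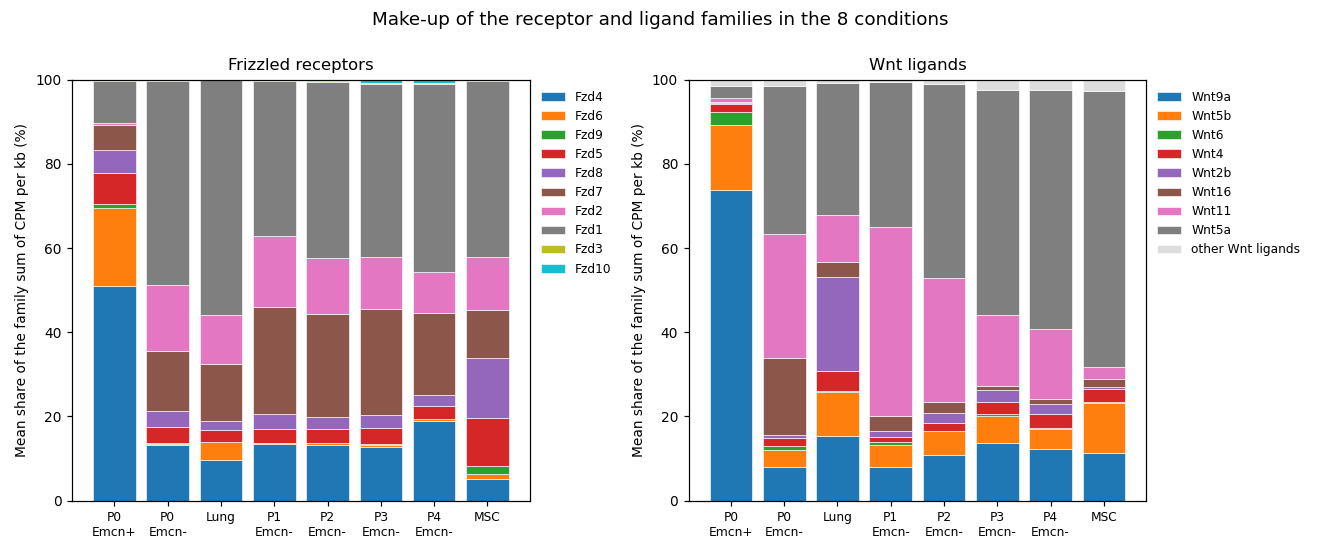
Stacked bars of the mean share (%) that each gene took of its family's summed CPM per kb of exon in the 8 conditions, Frizzled receptors on the left and Wnt ligands on the right. Wnt2 is not part of the ligand sum. In P0 Emcn+ the bars were filled mainly by Fzd4 and Wnt9a, with mean shares of 51.1% and 73.8%. Fzd1 was the largest receptor share in all other conditions. Wnt5a was the largest mean ligand share in P0 Emcn-, lung, P2, P3, P4 and MSC, and Wnt11 in P1.

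Wnt9a (ENSMUSG00000000126, chr11:59306928-59333552, + strand), a ligand known for joint formation and for blood stem cell emergence in zebrafish, led the ligands followed in P0 Emcn+ cells. Wnt2 was not among these, so every ligand share and rank here is of a sum without it. It had 16.9 and 22.5 CPM in P0 Emcn+, 2.37 and 2.82 in P0 Emcn-, 1.55 and 5.16 in lung, 1.93 and 2.91 in P1, 2.25 and 3.28 in P2, 2.60 and 3.41 in P3, 2.75 in P4 and 6.37 and 4.87 in MSC. Both P0 Emcn+ libraries were above all others, and MSC replicate 1 came next. Wnt9a was 7.81-fold higher in P0 Emcn+ than in the P0 Emcn- cells (log2 fold change 2.97 ± 0.50, adjusted p = 0.00125), and it took 73.8% ± 10.2 of the summed ligand CPM per kb there, against 8.06% ± 2.52 in P0 Emcn-.

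Wnt5b (chr6:119432531-119544347, - strand), a ligand that mostly acts without beta-catenin, had 4.40 and 1.97 CPM in P0 Emcn+, 0.957 and 1.01 in P0 Emcn-, 1.82 and 1.38 in lung, 1.19 and 1.33 in P1, 0.904 and 1.43 in P2, 0.988 and 1.33 in P3, 0.852 in P4 and 4.46 and 5.48 in MSC. P0 Emcn+ and MSC stood above all 11 other libraries, although P0 Emcn+ replicate 2 lay only just above lung replicate 1. The difference between P0 Emcn+ and P0 Emcn- was called (log2 fold change 1.74 ± 0.43, adjusted p = 0.0109), but not without P0 Emcn+ replicate 1 (1.05 at an adjusted p of 0.0916), nor without P0 Emcn- replicate 1 (1.71 at an adjusted p of 0.0565), by DESeq2 (1.46 at an adjusted p of 0.00244) or in the fit of the compared groups alone (1.75 at an adjusted p of 0.0818). Wnt7b (chr15:85535437-85582473, - strand), which brain cells use to instruct vessels, was near the limit of detection. It had 0.317 and 0.541 CPM in P0 Emcn+, 0 and 0 in P0 Emcn-, 0 and 0 in lung, 0.0892 and 0 in P1, 0 and 0 in P2, 0.0282 and 0 in P3, 0.0550 in P4 and 0.505 and 0.487 in MSC. Against a limit of 3 counts over both P0 Emcn- libraries, the 24 counts of P0 Emcn+ were 6.91-fold higher (fitted difference, adjusted p = 0.0234). Ratios of this kind leave out the counting error of the higher group and the spread between replicates, so they are not minimum folds. The call was lost by DESeq2, without P0 Emcn+ replicate 2 (adjusted p = 0.0719) and without P0 Emcn- replicate 1 (0.138).

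Wnt5a (ENSMUSG00000021994, chr14:28504750-28527448, + strand), the main ligand of Ror receptors, had the largest share of the ligands followed per kb in all P2, P3, P4 and MSC libraries. It had 1.71 and 1.89 CPM in P0 Emcn+, 20.4 and 36.2 in P0 Emcn-, 14.9 and 14.02 in lung, 25.1 and 23.3 in P1, 29.1 and 25.5 in P2, 31.3 and 24.1 in P3, 29.9 in P4 and 61.6 and 105 in MSC. P0 Emcn+ was under 2 CPM and every other library at or above 14.02. Wnt5a was 15.2-fold lower in P0 Emcn+ (log2 fold change -3.93 ± 0.34, adjusted p = 1.92e-05), and its share of the summed ligand CPM per kb was 2.89% ± 0.0174 there and 35.2% ± 1.27 in P0 Emcn-. In P0 Emcn- replicate 2 Wnt11 had the larger share (47.6%, against 34.3% for Wnt5a), as had Wnt2b in lung replicate 2 (30.1%, against 24.8%) and Wnt11 in both P1 libraries (43.7% and 46.0%).

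Wnt11 (chr7:98835112-98855195, + strand), a ligand of planar polarity, had 0.222 and 0.425 CPM in P0 Emcn+, 3.35 and 26.6 in P0 Emcn-, 3.34 and 1.89 in lung, 16.1 and 17.4 in P1, 7.59 and 11.2 in P2, 3.27 and 5.85 in P3, 4.62 in P4 and 1.04 and 2.89 in MSC. P0 Emcn+ lay below all others, and the P0 Emcn- replicates were far apart. The P0 Emcn+ difference was called despite that spread (log2 fold change -5.48 ± 0.99, adjusted p = 0.00189). Wnt16 (chr6:22288227-22298522, + strand), known for cortical bone mass, had 0.127 and 0 CPM in P0 Emcn+, 10.6 and 1.61 in P0 Emcn-, 1.02 and 0.830 in lung, 1.75 and 1.11 in P1, 0.875 and 0.795 in P2, 0.367 and 0.296 in P3, 0.330 in P4 and 1.66 and 0.578 in MSC. P0 Emcn- replicate 1 alone was above 2 CPM, and P0 Emcn+ lay below all others. The log2 fold change of Wnt16 was -6.40 ± 1.15 (adjusted p = 0.00174).

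Wnt2b had 0.0317 and 0.0386 CPM in P0 Emcn+, 0.126 and 0.504 in P0 Emcn-, 3.07 and 9.13 in lung, 0.476 and 0.610 in P1, 0.671 and 0.895 in P2, 0.931 and 0.666 in P3, 0.715 in P4 and 0.253 and 0.365 in MSC. Lung stood above all other libraries, and P0 Emcn+ below all. Between P0 Emcn+ and P0 Emcn- Wnt2b was not called (log2 fold change -2.66 ± 1.00, adjusted p = 0.0640), but with the replicate block it was (-2.77 at an adjusted p of 0.0140). Of the remaining ligands, Wnt4 ranged from 0.430 to 2.89 CPM with the lowest values in P1 and the highest in MSC replicate 2, Wnt6 from 0 to 0.634, and Wnt10b from 0 to 0.814. None of these 3 was called between P0 Emcn+ and P0 Emcn- (adjusted p = 0.784, 0.462 and 0.100).

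**Figure D3:**
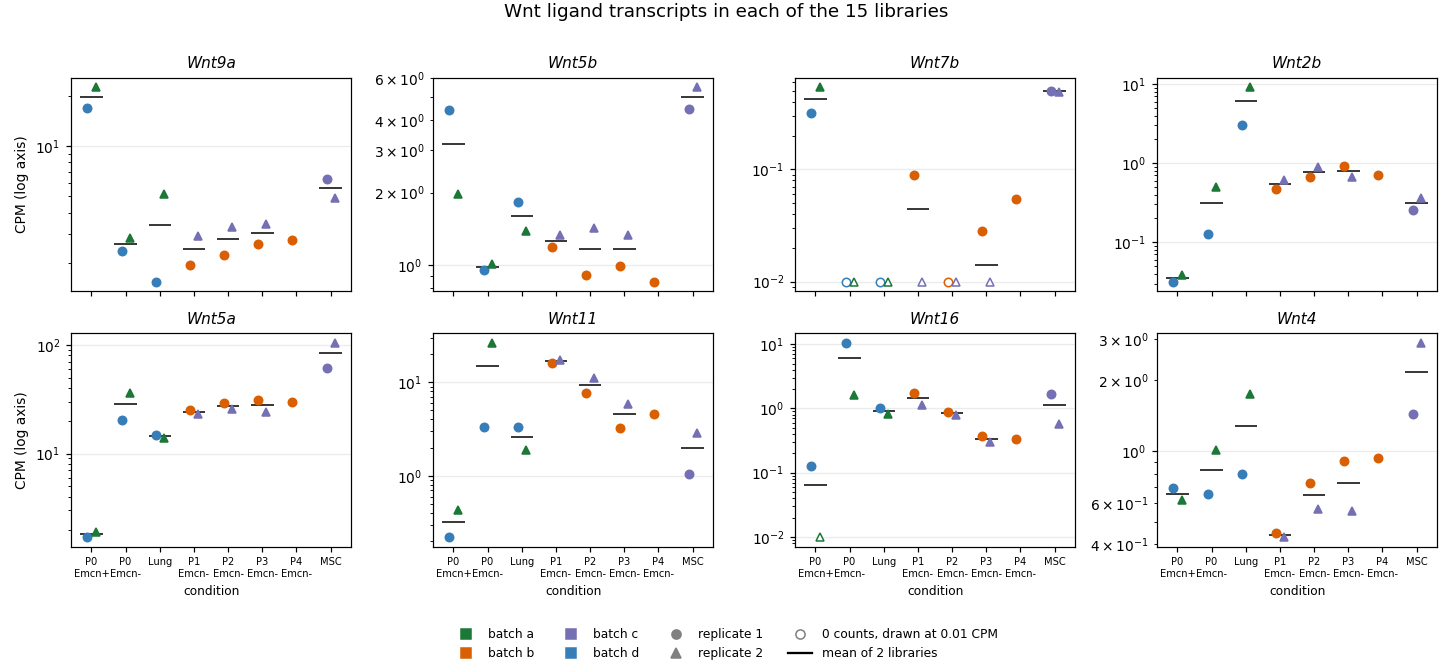
CPM of 8 Wnt ligands on log axes, with a point for each of the 15 libraries, coloured by batch and shaped by replicate, a bar at the mean of each pair and open symbols for 0 counts. Wnt9a stood highest in P0 Emcn+ and Wnt2b in lung, Wnt5a, Wnt11 and Wnt16 were lowest in P0 Emcn+, and Wnt11 and Wnt16 stood lower in P3 than in P1.

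The secreted modulators were low in P0 Emcn+ throughout. Sfrp2 (ENSMUSG00000027996, chr3:83766321-83774316, + strand), a Wnt-binding protein of fibroblasts, had 2.00 and 1.35 CPM in P0 Emcn+, 202 and 214 in P0 Emcn-, 4.94 and 6.69 in lung, 119.6 and 75.8 in P1, 38.3 and 52.5 in P2, 24.7 and 42.7 in P3, 19.7 in P4 and 272 and 458 in MSC. P0 Emcn- and MSC were highest, the passaged libraries were spread between them and lung, and P0 Emcn+ was at or under 2 CPM. Sfrp2 was 120.0-fold lower in P0 Emcn+ than in the P0 Emcn- cells (log2 fold change -6.91 ± 0.44, adjusted p = 3.30e-06).

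Sfrp1 (ENSMUSG00000031548, chr8:23411502-23449632, + strand), the broadly acting member of the family, had 5.01 and 7.61 CPM in P0 Emcn+, 40.8 and 231 in P0 Emcn-, 582 and 1031 in lung, 735 and 633 in P1, 1327 and 1162 in P2, 1302 and 1163 in P3, 1277 in P4 and 353 and 3816 in MSC. P0 Emcn+ lay below all others, and the replicates of P0 Emcn- and of MSC were widely apart. The P0 Emcn+ difference was called (log2 fold change -4.39 ± 1.05, adjusted p = 0.00898), and lost without P0 Emcn+ replicate 1 (-4.10 at an adjusted p of 0.0734) or without P0 Emcn- replicate 2 (-2.66 at an adjusted p of 0.0646). Sfrp4 (chr13:19623104-19632994, + strand), known for cortical bone, had 0.539 and 0.0386 CPM in P0 Emcn+, 1.46 and 6.56 in P0 Emcn-, 2.26 and 5.26 in lung, 2.23 and 3.59 in P1, 1.58 and 2.15 in P2, 0.423 and 1.63 in P3, 1.32 in P4 and 19.7 and 18.0 in MSC. MSC was above all others, and P0 Emcn+ overlapped P3 but not P0 Emcn-. Its call (log2 fold change -3.61 ± 1.01, adjusted p = 0.0193) was lost without P0 Emcn+ replicate 2 (-2.76 at an adjusted p of 0.0925), without P0 Emcn- replicate 2 (-2.23 at an adjusted p of 0.128) and in the fit of the compared groups alone.

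Dkk2 (ENSMUSG00000028031, chr3:132085292-132180304, + strand), a ligand of Lrp5 and Lrp6, had 0.158 and 0.850 CPM in P0 Emcn+, 14.7 and 45.3 in P0 Emcn-, 10.3 and 7.42 in lung, 113 and 111 in P1, 122 and 123 in P2, 77.6 and 100.3 in P3, 103 in P4 and 3.82 and 6.18 in MSC. The 7 passaged libraries were above all others, and P0 Emcn+ and MSC were below P0 Emcn-. Dkk2 was 59.3-fold lower in P0 Emcn+ than in the P0 Emcn- cells (log2 fold change -5.89 ± 0.69, adjusted p = 1.25e-04). Dkk3 (chr7:112116017-112159057, - strand), a divergent Dickkopf for which binding to Lrp5 and Lrp6 is not established, had 3.45 and 5.14 CPM in P0 Emcn+, 195 and 83.1 in P0 Emcn-, 458 and 266 in lung, 191 and 234 in P1, 188 and 256 in P2, 193 and 298 in P3, 167 in P4 and 879 and 531 in MSC. P0 Emcn+ lay below all others, and every other library was at or above 83.1 CPM (log2 fold change -4.99 ± 0.52, adjusted p = 6.62e-05). The remaining Dickkopfs, Dkk1 and Dkk4, had condition means of at most 0.0915 CPM and were not tested.

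Rspo2 (ENSMUSG00000051920, chr15:43020794-43170826, - strand) had 2.25 and 2.20 CPM in P0 Emcn+, 42.2 and 62.4 in P0 Emcn-, 2.98 and 0.784 in lung, 35.5 and 36.4 in P1, 13.5 and 20.5 in P2, 4.63 and 9.85 in P3, 4.81 in P4 and 166 and 125 in MSC. P0 Emcn+ and lung were low, P0 Emcn- and P1 intermediate, and MSC highest. Rspo2 was 22.8-fold lower in P0 Emcn+ than in the P0 Emcn- cells (log2 fold change -4.51 ± 0.56, adjusted p = 1.71e-04). Rspo3 (chr10:29452416-29535867, - strand), which is needed for the vessels of the mouse placenta, had 0.507 and 0.618 CPM in P0 Emcn+, 16.1 and 7.26 in P0 Emcn-, 49.1 and 34.4 in lung, 8.72 and 8.64 in P1, 11.7 and 12.9 in P2, 16.9 and 16.7 in P3, 16.2 in P4 and 152 and 72.3 in MSC. P0 Emcn+ was under 1 CPM and below all others, and lung and MSC were highest (log2 fold change -4.37 ± 0.50, adjusted p = 1.06e-04). Rspo1 had 0 and 0 CPM in P0 Emcn+, 0.201 and 0.101 in P0 Emcn-, 1.46 and 2.35 in lung, 0.0297 and 0.179 in P1, 0.0584 and 0.232 in P2, 0.0564 and 0.296 in P3, 0.0275 in P4 and 0.926 and 4.90 in MSC. P0 Emcn- was 3.47-fold higher against the limit of 3 counts over both P0 Emcn+ libraries, without a call (adjusted p = 0.0970).

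**Figure D4:**
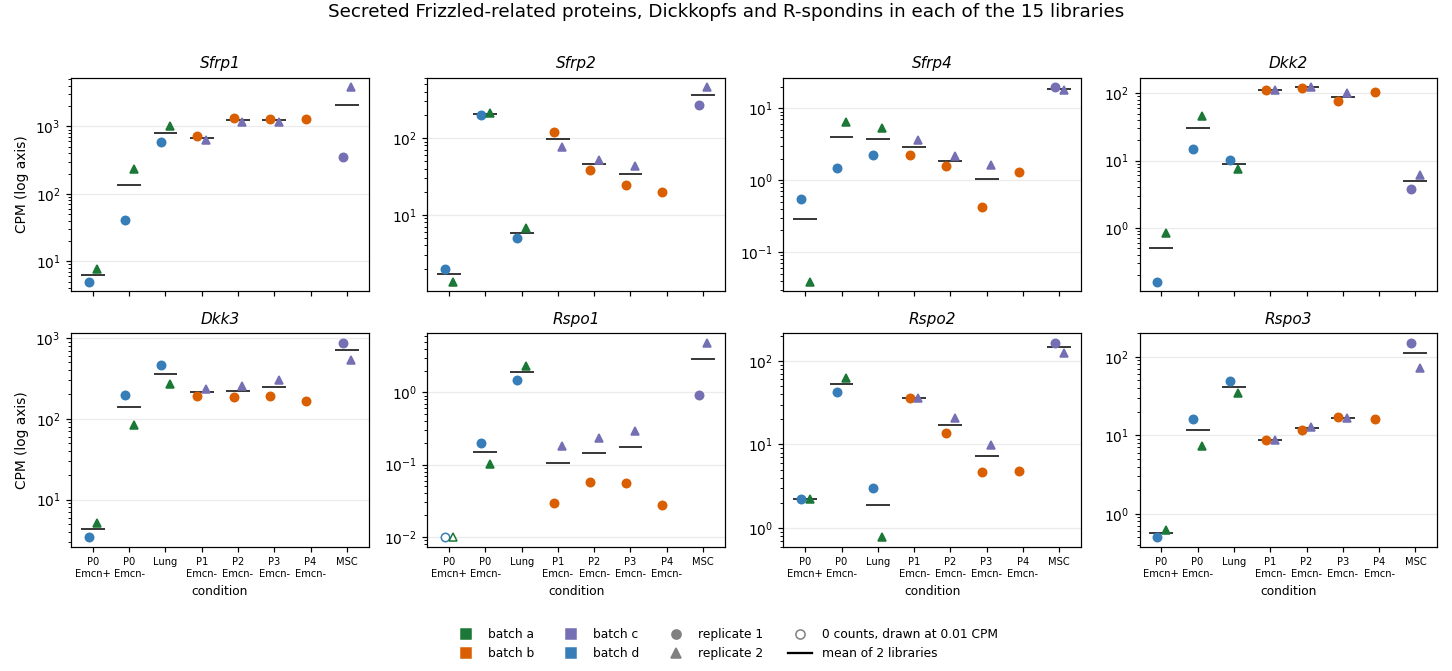
CPM of 3 secreted Frizzled-related proteins, 2 Dickkopfs and 3 R-spondins on log axes, with a point for each of the 15 libraries, coloured by batch and shaped by replicate, a bar at the mean of each pair and open symbols for 0 counts. In Sfrp1, Sfrp2, Dkk2, Dkk3 and Rspo3 both P0 Emcn+ libraries stood below all others, and Dkk2 stood highest in the passaged libraries at 77.6 to 123 CPM.

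Promoters are shown for genes that stood out on either side, Wnt9a and Fzd4 for P0 Emcn+ and Fzd1, Wnt11, Sfrp2 and Dkk2 for P0 Emcn-, so that the start regions of genes with opposite patterns can be read side by side. Each runs 5′ to 3′ on the gene's strand from 250 bases before to 50 bases after the RefSeq start (GRCm38.p6), at chr11:59306680-59306979 for Wnt9a, chr7:89404116-89404415 for Fzd4, chr5:4758167-4758466 (- strand) for Fzd1, chr7:98834862-98835161 for the upstream start of Wnt11, chr3:83766071-83766370 for Sfrp2 and chr3:132085042-132085341 for Dkk2. Capitals mark the TCF/LEF core TCAAAG on either strand.
Wnt9a: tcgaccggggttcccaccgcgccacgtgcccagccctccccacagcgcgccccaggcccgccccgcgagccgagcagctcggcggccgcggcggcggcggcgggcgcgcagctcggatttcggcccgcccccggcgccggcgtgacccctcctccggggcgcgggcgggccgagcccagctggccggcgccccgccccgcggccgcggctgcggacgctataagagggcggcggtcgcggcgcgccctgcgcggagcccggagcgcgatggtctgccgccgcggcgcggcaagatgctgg
Fzd4: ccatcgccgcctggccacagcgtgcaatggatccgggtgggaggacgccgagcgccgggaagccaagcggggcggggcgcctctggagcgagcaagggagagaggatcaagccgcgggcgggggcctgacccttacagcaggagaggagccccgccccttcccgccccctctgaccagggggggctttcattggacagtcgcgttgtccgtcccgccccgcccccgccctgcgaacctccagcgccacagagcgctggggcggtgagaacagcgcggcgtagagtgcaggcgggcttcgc
Fzd1: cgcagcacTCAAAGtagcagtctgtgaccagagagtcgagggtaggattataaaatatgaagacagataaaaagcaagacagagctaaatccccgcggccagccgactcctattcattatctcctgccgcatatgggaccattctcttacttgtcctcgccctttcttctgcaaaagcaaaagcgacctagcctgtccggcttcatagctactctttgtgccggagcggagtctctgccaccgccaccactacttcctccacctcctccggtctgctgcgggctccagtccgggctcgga
Wnt11: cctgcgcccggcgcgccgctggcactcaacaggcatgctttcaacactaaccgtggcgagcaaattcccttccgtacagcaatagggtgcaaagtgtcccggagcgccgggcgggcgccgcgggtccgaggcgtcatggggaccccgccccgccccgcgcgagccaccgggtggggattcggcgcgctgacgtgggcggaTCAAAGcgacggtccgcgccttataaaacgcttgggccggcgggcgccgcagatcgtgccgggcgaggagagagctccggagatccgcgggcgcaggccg
Sfrp2: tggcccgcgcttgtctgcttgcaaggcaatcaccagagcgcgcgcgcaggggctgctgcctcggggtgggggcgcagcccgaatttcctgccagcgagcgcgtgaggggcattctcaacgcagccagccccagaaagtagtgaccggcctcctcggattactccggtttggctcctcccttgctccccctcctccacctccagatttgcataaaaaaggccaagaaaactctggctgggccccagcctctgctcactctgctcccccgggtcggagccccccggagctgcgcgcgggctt
Dkk2: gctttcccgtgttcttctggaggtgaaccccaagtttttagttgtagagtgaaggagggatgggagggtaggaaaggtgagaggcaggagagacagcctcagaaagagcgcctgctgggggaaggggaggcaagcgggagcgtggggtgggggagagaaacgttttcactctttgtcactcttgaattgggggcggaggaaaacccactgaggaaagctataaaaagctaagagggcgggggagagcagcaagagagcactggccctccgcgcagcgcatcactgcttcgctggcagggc
The TCF/LEF core (TCAAAG, or CTTTGA on the other strand) was found in the windows of Fzd1 and Wnt11 and in none of the other 4 shown. With Fzd8 left out of the search, RefSeq gave 29 such windows for 26 of the 40 genes. Of these, 4 windows (13.8%) held the TCF/LEF core, among them 1 of 3 starts of Wnt5b and, with 2 matches, Dkk1, against 16% of 32851 mouse promoters. The ETS motif CCGGAAG, searched with its reverse complement, of a factor family that is active in endothelium, was held by 1 of the 29, that of Fzd10, against 8.86% of all, and cannot overlap the TCF/LEF core. The 29 windows had a median GC content of 70.7%, against 52.7% for all promoters, and 28 of the 29 were above that median. A match is only a run of letters, and no binding was measured.

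Co-receptors of the ligands also differed between P0 Emcn+ and P0 Emcn- cells. Of 17 tested co-receptors and membrane regulators 2 were called higher and 4 lower (7.79% and 11.4% of all genes), with a median log2 fold change of -1.06 against -0.06 for all genes. Tspan12, the tetraspanin of the Fzd4 complex, had 40.4 and 34.2 CPM in P0 Emcn+ and 8.23 and 4.03 in P0 Emcn-. Both P0 Emcn+ libraries were above all 13 others (log2 fold change 2.61 ± 0.48, adjusted p = 0.00198). Ror1 had 0.444 and 1.31 CPM in P0 Emcn+ and 55.0 and 52.3 in P0 Emcn-. Ror2 had 0.475 and 0.425 and 26.8 and 23.5 CPM. Neither co-receptor of Wnt5a overlapped between the groups (log2 fold changes -5.93, adjusted p = 6.36e-05, and -5.75, adjusted p = 3.62e-07). Lrp4, a receptor for sclerostin and Dkk1, was also called lower (log2 fold change -3.41 ± 0.70, adjusted p = 0.00376), as was Reck, which serves Wnt7a and Wnt7b with Adgra2 (log2 fold change -2.68 ± 0.46, adjusted p = 0.00133). The second gene called higher was Kremen2, a receptor of Dkk1, which rested on 6 counts in P0 Emcn+ and 0 in P0 Emcn- (1.73-fold against the limit of 3 counts). Its call was lost without the filter (adjusted p = 0.0990), with the replicate block (0.0880), by DESeq2 (0.149) and without any 1 of the 4 libraries (0.0695 to 0.286).

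The co-receptors of beta-catenin signalling differed by less. Lrp5 had 227 and 228 CPM in P0 Emcn+ and 109.7 and 89.9 in P0 Emcn- (log2 fold change 1.22 ± 0.26, adjusted p = 0.00506). Lrp6 had 167 and 129 and 315 and 456 (log2 fold change -1.35 ± 0.22, adjusted p = 9.19e-04). Both passed the adjusted p and neither the limit of 1.5, in opposite directions. Ctnnb1, which encodes beta-catenin, had 1127 and 759.5 CPM in P0 Emcn+ and 1009.8 and 492 in P0 Emcn-, and was not called (adjusted p = 0.410). Of 15 genes of beta-catenin transduction 3 were called lower and none higher, against 11.4% and 7.79% of all genes (19.2% in either direction). Their median log2 fold change was -0.20. The largest changes called were those of Pygo1 (-5.08, adjusted p = 9.05e-05) and Bcl9l (-2.56, adjusted p = 3.40e-06), which bring beta-catenin to chromatin. The third was Dvl2, whose call was lost by DESeq2, without P0 Emcn+ replicate 2 (-1.25 at an adjusted p of 0.00120) or without P0 Emcn- replicate 1 (-1.38 at an adjusted p of 0.00188).

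Transcriptional targets went both ways, with 3 of 11 called higher and 3 lower, against 7.79% and 11.4% of all genes (median log2 fold change -0.94). Axin2, the most general target of beta-catenin, had 0.285 and 0.309 CPM in P0 Emcn+ and 2.39 and 3.73 in P0 Emcn-. The groups did not overlap (log2 fold change -3.29 ± 0.51, adjusted p = 7.18e-04). Nkd1, a feedback inhibitor, had 0.507 and 0.155 and 8.89 and 7.26 (log2 fold change -4.52 ± 0.58, adjusted p = 2.20e-04). Tcf7 had 3.77 and 2.86 CPM in P0 Emcn+ and 0.352 and 0.605 in P0 Emcn-, the opposite order (log2 fold change 2.92 ± 0.48, adjusted p = 0.00110). Bambi, a pseudoreceptor for TGF-beta ligands, had 36.4 and 19.4 and 5.41 and 4.03 (log2 fold change 2.58 ± 0.45, adjusted p = 0.00156). Lef1 had 0 counts in P0 Emcn+ and 7 in P0 Emcn-, 2.70-fold higher against 3 counts. Its call (adjusted p = 0.0268) was lost with the replicate block (adjusted p = 0.0649) and without either P0 Emcn+ library or P0 Emcn- replicate 1. Sp5 was called higher with 68 counts in P0 Emcn+ and 0 in P0 Emcn-, 19.6-fold against 3 counts. It was not called with the replicate block (adjusted p = 0.0689), by DESeq2 or without any 1 of the 4 libraries.

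Of 6 tested genes of other secreted inhibitors 1 was called higher and 2 lower (median -0.17), and the counts here stand against 7.79% of all genes called higher and 11.4% lower. Frzb had 23.0 and 67.4 CPM in P0 Emcn+, 3.78 and 2.02 in P0 Emcn- and 22.5 and 106 in lung. It was the only Frizzled-related protein gene that was called higher in P0 Emcn+ (log2 fold change 3.92 ± 1.05, adjusted p = 0.0155), and the call was lost without P0 Emcn+ replicate 2 (2.97 at an adjusted p of 0.0789) or without either P0 Emcn- library (4.53 at an adjusted p of 0.0565, and 3.61 at an adjusted p of 0.0904). Draxin and Trabd2b (Tiki2, a protease that inactivates Wnt ligands) were called lower (-6.97, adjusted p = 0.00120, and -4.38, adjusted p = 1.12e-05). Of 3 genes listed under Wnt secretion 1 was called, and it was lower. It was Notum, which removes the lipid of Wnt proteins rather than secreting them (log2 fold change -5.61 ± 0.92, adjusted p = 0.00108). Of 9 planar polarity genes (median -0.23) Celsr2 (3.59, adjusted p = 0.00123) and Daam1 (1.66, adjusted p = 1.07e-05) were called higher and Daam2 lower (-5.09, adjusted p = 4.01e-05).

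**Figure D5:**
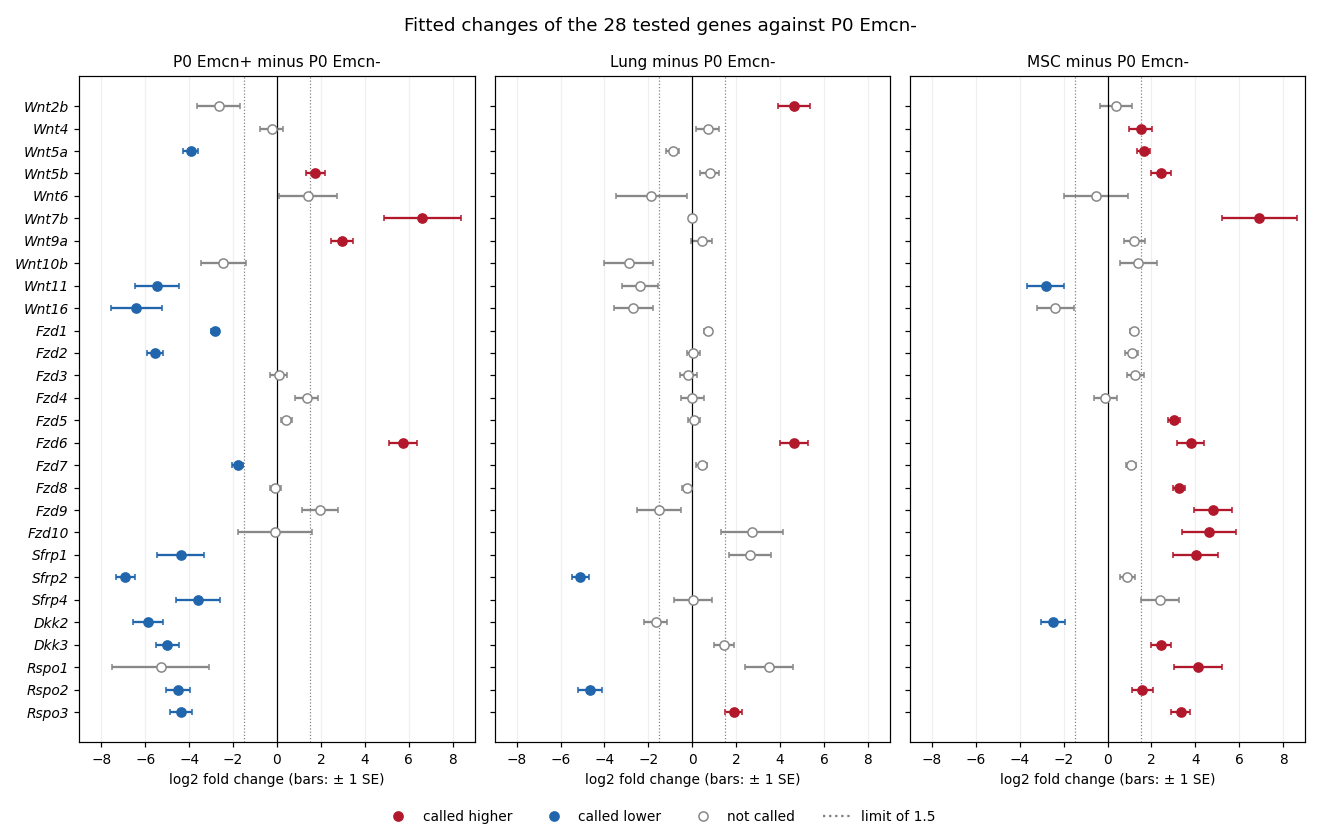
Fitted log2 fold changes of the 28 tested genes in P0 Emcn+, lung and MSC, each against P0 Emcn-, with bars of 1 SE, filled points for called genes and dotted lines at the limit of 1.5. Wnt7b has no bar in lung, where both groups had 0 counts. The 3 panels share the P0 Emcn- libraries.

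Lung cultures were compared with P0 Emcn- marrow cultures, which asks how cells of 2 organs grown alike differ. Lung had more Wnt2b, Fzd6 and Rspo3 and less Sfrp2 and Rspo2. Of the 28 genes 3 were called higher, against 2.13% of all genes tested, and 2 lower, against 1.70% (3.83% in either direction), and the median log2 fold change was 0.04 (all genes, 0.00). Wnt2b, a ligand of early lung specification, was 24.9-fold higher in lung (log2 fold change 4.64 ± 0.72, adjusted p = 0.00640). Fzd6 was 24.7-fold higher (log2 fold change 4.63 ± 0.62, adjusted p = 0.00338). Rspo3 was 3.68-fold higher (log2 fold change 1.88 ± 0.40, adjusted p = 0.0257). Sfrp2 was 34.3-fold lower (log2 fold change -5.10 ± 0.40, adjusted p = 3.50e-04). Rspo2, the limb and lung R-spondin, was 25.2-fold lower (log2 fold change -4.66 ± 0.56, adjusted p = 0.00206), so that P0 Emcn- and lung cells differed in Rspo2 and Rspo3 in opposite directions.

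In the fit of these 4 libraries alone, Sfrp2 stayed called and the calls of the other 4 were lost. Over all genes, that fit called 145 of 15414, against 743 of 19401 in the main fit. The call of Rspo3 was also lost without P0 Emcn- replicate 2 (1.43 at an adjusted p of 0.0917) and without lung replicate 1 (1.57 at an adjusted p of 0.142). Wnt5a, Fzd2, Fzd4 and Fzd7 had log2 fold changes of -0.89, 0.05, -0.01 and 0.42 and were not called. Fzd1 passed the adjusted p at a log2 fold change of 0.71 (adjusted p = 0.0420). Macrophage markers were lower in lung, with 7 of 8 called, and their part in these results was not tested.

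Set against the lung libraries, P0 Emcn+ cells had 3 genes called higher, against 8.48% of all genes, and 14 lower, against 12.6% (21.1% in either direction), with a median log2 fold change of -2.01 (all genes, -0.06). The genes higher were Wnt9a (2.54, adjusted p = 0.00238), Wnt7b and Fzd9, of which Wnt7b, at 0 counts in lung, was lost by DESeq2, without P0 Emcn+ replicate 2 and without lung replicate 1 (adjusted p = 0.0763, 0.0568 and 0.0795). Fzd6 had a log2 fold change of 1.10 (adjusted p = 0.120) and was called only without lung replicate 2 (2.15 at an adjusted p of 0.0115). The largest fitted differences in the other direction among genes with counts in all 4 libraries were those of Wnt2b (-7.30, adjusted p = 1.26e-04), Sfrp1 (-7.03, adjusted p = 0.00114) and Dkk3 (-6.44, adjusted p = 2.04e-05). Rspo1, with 104 counts in lung and 0 in P0 Emcn+, was 34.4-fold higher in lung against the limit of 3 counts (fitted difference, adjusted p = 0.00385). Rspo2 was low in both (0.14, adjusted p = 0.885). These libraries also enter the comparisons with P0 Emcn-, so the comparisons share samples.

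Passages were compared within the Emcn- marrow cells. Between P0 and P1, Dkk2 alone was called, higher at P1 by 4.23-fold (log2 fold change 2.08 ± 0.52, adjusted p = 0.0244), against 5.77% of all genes called higher and 3.07% lower (8.84% in all). The call held with the replicate block (2.23 at an adjusted p of 0.0150), and was lost without P0 Emcn- replicate 1 (1.46 at an adjusted p of 0.0988), without P1 replicate 1 (2.04 at an adjusted p of 0.101), without P1 replicate 2 (2.12 at an adjusted p of 0.0781) and in the fit of the compared groups. P0 and P1 libraries share no batch, so batch and passage cannot be told apart here. Sfrp1 had a larger fitted difference and wider spread, and was not called (log2 fold change 2.50 ± 0.96, adjusted p = 0.0959). Fzd1 passed the adjusted p at a log2 fold change of -0.77 (adjusted p = 0.0156).

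From P1 to P3 the main fit (edgeR, all 15 libraries, with the filter on low counts) called no gene of the system. There, 0.0773% of all genes tested were called higher and 0.144% lower (0.222% in all). That fit left the P1 and P3 libraries unpaired, although the study passaged its cultures serially and same-numbered libraries share a batch. The deviations of these libraries correlated at 0.354. With the replicate block 106 of 19401 genes were called here, against 43 in the main fit. DESeq2 called 1, Rspo2, and 150 of 19401 genes over all. Without the filter Fzd10 (4.00 at an adjusted p of 0.0495), Sfrp2 (-1.51 at an adjusted p of 0.0282) and Rspo2 were called, and in the fit of the compared groups alone Wnt11 (-1.85 at an adjusted p of 0.0498) and Rspo2. Over all genes, 170 of 30660 were called without the filter and 153 of 15970 in the fit of the compared groups. Rspo2 was 35.5 and 36.4 CPM in P1, 13.5 and 20.5 in P2, 4.63 and 9.85 in P3 and 4.81 in P4. The P3 libraries lay below the P2 libraries and these below the P1 libraries (log2 fold change -2.29 ± 0.50, adjusted p = 0.0897). DESeq2 called it (-1.95 at an adjusted p of 4.63e-04), as did the fit without the filter on low counts (-2.29 at an adjusted p of 0.0177) and that of the compared groups alone (-2.29 at an adjusted p of 0.0498). Sfrp2 went from 119.6 and 75.8 CPM in P1 to 24.7 and 42.7 in P3 and 19.7 in P4 (log2 fold change -1.52 ± 0.34, adjusted p = 0.101). Wnt11 went from 16.1 and 17.4 to 3.27 and 5.85 (log2 fold change -1.85 ± 0.79, adjusted p = 0.344). Fzd10 went the other way, from 0.0892 and 0.0717 CPM in P1 to 0.904 and 0.365 in P2 and 2.03 and 0.555 in P3 (log2 fold change 3.99 ± 0.93, adjusted p = 0.108), and Rspo3 from 8.72 and 8.64 to 16.9 and 16.7 (log2 fold change 0.99 ± 0.40, adjusted p = 0.315).

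In all, 6 of the 28 genes stood lower at each step from P1 to P2 to P3 in both batches (Wnt11, Wnt16, Fzd2, Sfrp2, Sfrp4 and Rspo2) and 5 stood higher at each step (Wnt9a, Fzd6, Fzd9, Fzd10 and Rspo3). Of all 19401 genes tested, 16.4% were ordered downwards in this way and 12.6% upwards. Wnt5a, by contrast, was between 23.3 and 31.3 CPM in all 7 passaged libraries, Fzd7 between 49.0 and 73.0, and Dkk2 between 77.6 and 123. Macrophage markers were at 70.3 and 229 CPM in P1 and 17.3 and 14.1 in P3 and so moved with passage as well, and their part was not tested. Of the targets, Ccnd1 was the 1 gene called between P3 and P1, with 365 and 322 CPM in P1, 1165 and 687 in P2, 2372 and 1440.4 in P3 and 2121 in P4. Ccnd1, which encodes cyclin D1, has many regulators beside Wnt signals, and its call (log2 fold change 2.51 ± 0.41, adjusted p = 0.0453) was lost without any 1 of the 4 libraries (adjusted p = 0.136 to 0.315). Axin2 was between 1.98 and 6.44 CPM in P1 to P4 (adjusted p = 0.765 for P3 against P1).

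MSC had more of many receptors, ligands and R-spondins than the Emcn- marrow cells. Of the 28 tested, 14 were called higher than in P0 Emcn-, against 11.3% of all genes, and 2 lower, against 7.45% (18.7% in either direction). The median log2 fold change was 1.54 (all genes, 0.01). The MSC and P0 Emcn- libraries share no batch, so that batch, mouse line and medium cannot be told apart from cell type. Against P1 to P3 Emcn- cells, 18 were called higher, against 8.42% of all genes, and 2 lower, against 5.81% (14.2% in either direction). Batch c alone holds both MSC libraries and the second replicate of each of these passages, and within it 16 were called higher and 2 lower. Over all genes, 2435 of 16581 were called within batch c, 52.4% of them higher.

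The comparison with P1 to P3 treated the passaged libraries as independent, although the study passaged its cultures serially. Deviations of same-numbered P1 to P3 libraries correlated at 0.354 to 0.451, so its SE and p-values may be too small. Fzd8 was 9.53-fold higher in MSC than in P0 Emcn- (log2 fold change 3.25 ± 0.26, adjusted p = 2.18e-05) and 15.02-fold higher than in P1 to P3 (log2 fold change 3.91 ± 0.17, adjusted p = 9.97e-07). Fzd5 was 8.05-fold and 11.4-fold higher in the same comparisons (adjusted p = 5.73e-05 and 3.69e-06). Fzd6 was 13.8-fold higher than in P0 Emcn- (log2 fold change 3.78 ± 0.60, adjusted p = 0.00130). Rspo3 was 10.1-fold higher than in P0 Emcn- (log2 fold change 3.34 ± 0.43, adjusted p = 3.83e-04), and Rspo2 8.34-fold higher than in P1 to P3 (log2 fold change 3.06 ± 0.35, adjusted p = 2.01e-04). Both MSC libraries are in batch c, so the block pairs no MSC library with another, and shifts MSC by the difference between batches b and c in the passaged libraries. Against P0 Emcn-, Rspo2 was called without the replicate block (1.57, adjusted p = 0.0279) and not with it (1.29 at an adjusted p of 0.0688), as was Rspo1 (2.97 at an adjusted p of 0.0686 with the block). With the block the calls of Fzd2 (1.399 at an adjusted p of 0.00216) and Dkk3 (1.37 at an adjusted p of 0.0181) against P1 to P3 fell under the limit of 1.5, and Fzd3 was called against P0 Emcn- (1.58 at an adjusted p of 0.00683).

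Dkk2 and Wnt11 were the only genes of the system called lower in MSC in both comparisons. Dkk2 was 22.9-fold lower than in P1 to P3 (log2 fold change -4.52 ± 0.55, adjusted p = 2.99e-04) and 5.56-fold lower than in P0 Emcn- (log2 fold change -2.47 ± 0.54, adjusted p = 0.00653). The latter was lost without P0 Emcn- replicate 2 (-1.49 at an adjusted p of 0.0318) or MSC replicate 1 (-2.19 at an adjusted p of 0.0531). Wnt11 against P1 to P3 (log2 fold change -2.29 ± 0.74, adjusted p = 0.0377) was lost without each of 7 of the 8 libraries compared, P3 replicate 1 being the exception, with adjusted p = 0.0511 without P2 replicate 1 to 0.234 without MSC replicate 1. Sfrp1 had the widest replicate spread of the MSC, 353 and 3816 CPM, and its call against P0 Emcn- (log2 fold change 4.02 ± 1.02, adjusted p = 0.0132) was lost without MSC replicate 2 (1.504 at an adjusted p of 0.160) or P0 Emcn- replicate 1 (3.23 at an adjusted p of 0.0625). Wnt11 against P0 Emcn- (log2 fold change -2.82 ± 0.83, adjusted p = 0.0250) was lost without P0 Emcn- replicate 2 (-0.72 at an adjusted p of 0.371) or MSC replicate 1 (-2.28 at an adjusted p of 0.141). The calls of Wnt4, Wnt5a, Wnt7b, Fzd10, Rspo1 and Rspo2 as higher than in P0 Emcn-, and those of Wnt4, Wnt5a, Wnt10b, Fzd2, Fzd3 and Dkk3 as higher than in P1 to P3, were likewise lost without at least 1 library.

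The R-spondin receptor Lgr5 had 238 and 40.8 CPM in MSC and at most 0.414 in any of the other 13 libraries (log2 fold change 9.89 ± 1.09, adjusted p = 1.67e-04 against P0 Emcn-). Wif1, a secreted Wnt inhibitor, had 26.5 and 39.7 in MSC and at most 0.403 elsewhere (log2 fold change 7.53 ± 0.69, adjusted p = 5.54e-05). Lef1 had 1.88 and 5.51 CPM in MSC and at most 0.717 elsewhere (log2 fold change 4.79 ± 0.73, adjusted p = 0.00139), and Tcf7 4.69 and 4.08 (log2 fold change 3.38 ± 0.49, adjusted p = 7.43e-04). Axin2, at 4.46 and 4.54 CPM in MSC, was not called against P0 Emcn- (adjusted p = 0.246) or P1 to P3 (adjusted p = 0.933). Of 17 co-receptors and membrane regulators 4 were called higher in MSC than in P0 Emcn- and 1 lower, and of 11 targets 4 higher and none lower, against 11.3% and 7.45% of all genes. Of these, the calls of Reck and Adgra2 were lost without MSC replicate 1 (adjusted p = 0.0320 and 0.0175, with log2 fold changes of 1.19 and -1.28), that of Kremen2 without P0 Emcn- replicate 1 (adjusted p = 0.108), that of Lgr6 without MSC replicate 2 or either P0 Emcn- library (adjusted p = 0.0662 to 0.196), and that of Nkd2 without MSC replicate 2 or P0 Emcn- replicate 2 (adjusted p = 0.0697 and 0.0707). The fit of the compared groups alone also lost Reck, Lgr6 and Nkd2 (adjusted p = 0.0848, 0.0858 and 0.0580), and the replicate block Lgr6 (0.0608).

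The 12 genes not tested were Wnt1, Wnt3, Wnt3a, Wnt7a, Wnt8a, Wnt8b, Wnt9b, Wnt10a, Sfrp5, Dkk1, Dkk4 and Rspo4. They had between 0 and 40 counts over all 15 libraries together, and the highest condition mean among them was 0.204 CPM, that of Wnt10a. Wnt3a, the ligand most used to activate beta-catenin in culture, had 0 counts in every library. At this depth a library with 0 counts allows up to 0.0755 to 0.303 CPM, which covers counting error only.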

How the data were processed

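Total RNA was sequenced from 15 libraries of 8 conditions. The authors trimmed the reads, aligned them to GRCm38 with STAR and quantified genes with Salmon, and the deposited table gives whole-number counts for 44674 genes, whose rounding is not described in the sources used here. CPM were computed here from each library's total (9914620 to 39718807 counts), and CPM per kb by dividing by the union of GENCODE exons. Counts were tested with edgeR 4.0.16 in R 4.3.3 (TMM scaling, genes kept by filterByExpr with a minimum count of 10, quasi-likelihood test, 1 coefficient per condition over all 15 libraries, 7 residual degrees of freedom). The 1 library of P4 adds no spread and entered no contrast. Adjusted p-values are Benjamini-Hochberg values over 19401 genes. The procedure was also run on simulated counts, which held no batch effect and no spread particular to single genes. That run therefore cannot vouch for the calls made here. The members and lists were chosen with earlier results of these data known. All 40 members are accounted for, and values of every library are given for those with a mean of at least 10 CPM in a condition or a call for P0 Emcn+, lung or P1 against P0 Emcn-, and also for Fzd9 and Rspo1, chosen after their values were seen. Pathway genes were named as the largest called changes of each list plus Axin2, Lef1, Lrp5, Lrp6, Ctnnb1, Frzb, Wif1, Tspan12 and Lgr5, while Cdh5 and Reck were named after their values were seen.

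Replicate numbers mark batches shared by the P0 and lung conditions and by P1 to P3 in the labels, and deviations from the condition means of such same-numbered libraries correlated at 0.139 to 0.209 and 0.354 to 0.451. Replicates were separate cultures by the study's account, and p-values measure the spread between these libraries. No pair of replicates agreed within sampling noise (chi-square per degree of freedom 42.5 to 140.5). Alternatives were DESeq2 size factors, no filter, a replicate block (a term for batch a against d and a term for b against c, each centred on 0), DESeq2 1.42.0 with fold changes shrunken by ashr 2.2.63, only the compared groups, adjusted p alone and leaving out each library. Promoters were read from RefSeq (GRCm38.p6) and searched on both strands.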

Additional observations from a re-analysis of the deposited data

How the results depend on the processing

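Of the 76 calls of the 28 tested genes over 7 comparisons, 44 held under every alternative run, namely 12 of 17 for P0 Emcn+ against P0 Emcn-, 12 of 17 for P0 Emcn+ against lung, 1 of 5 for lung against P0 Emcn-, 0 of 1 for P1 against P0, 7 of 16 for MSC against P0 Emcn- and 12 of 20 for MSC against P1 to P3. When a library was left out, 62 of 384 values were no longer called and 0 changed sign, and under the other alternatives 31 of 398 were no longer called and 0 changed sign. Among the pathway genes, 107 of 673 values were no longer called and 1 changed sign, that of Sp5 in MSC against P1 to P3, which was -0.77 without MSC replicate 2 and 6.23 without MSC replicate 1.

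The number of genes higher in P0 Emcn+ than in the Emcn- cells was 2 by DESeq2 and 2 in the fit of the compared groups. Over all genes and in either direction, DESeq2 called 3302 of 19401 here, and the main fit 3725. The fit of the compared groups called 2959 of 15369. For lung against P0 Emcn- that fit gave 0 higher and 1 lower, for P1 against P0 0 higher, for P3 against P1 2 lower, and for MSC against P0 Emcn- 0 lower. Over all genes it called 145 of 15414 for lung, against 743 of 19401 in the main fit. It called 968 of 16028 for P1 against P0, 153 of 15970 for P3 against P1 and 2396 of 16623 for MSC. Without the filter 2 genes were higher at P1 than at P0, 1 was higher and 2 were lower at P3 than at P1, and DESeq2 gave 1 lower at P3. Over all genes, the fit without the filter called 1901 of 30660 for P1 against P0 and 170 of 30660 for P3 against P1. DESeq2 called 150 of 19401 for P3 against P1. By adjusted p alone 1 gene was lower at P1 than at P0. Leaving out a library gave 2 to 6 higher and 11 to 14 lower for P0 Emcn+ against P0 Emcn-, 2 to 4 higher and 2 to 4 lower for lung, and 1 to 5 higher and 11 to 13 lower for P0 Emcn+ against lung. The same gave 0 to 3 higher and 0 to 1 lower for P1 against P0, 0 higher and 0 lower for P3 against P1, 7 to 13 higher and 0 to 2 lower for MSC against P0 Emcn-, 14 to 18 higher and 1 to 2 lower for MSC against P1 to P3, and 25 to 28 genes differing over all conditions. Leaving out a library leaves 1 library in a condition, and these counts stand without a share of all genes. They show only how far the calls depend on a single library. For P3 against P1 such fits called few or no genes of any kind, so the absence of calls there says little about the 28. The cause of these changes was not tested.

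With the replicate block 16 genes were higher in MSC than in P1 to P3. Over all genes, the fit with the block called 2629 of 19401 there, 55.2% of them higher. Among the 28 genes no call changed with the block beyond those of Fzd4, Wnt2b, Fzd3, Fzd2, Dkk3, Rspo1 and Rspo2 given above. The filter left out 12 of the 40 genes, which had at most 40 counts each over the 15 libraries. None of these was called without the filter, where the smallest adjusted p was 0.170, for Wnt10a in P1 against P0.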
